A study of Mus musculus with 10 samples.

Results

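Insulin signalling and glucose uptake were followed through 9 genes, namely the insulin receptor gene Insr, the adaptor genes Irs1 and Irs2, the PI3-kinase subunit gene Pik3r1, the kinase gene Akt2, its targets Foxo1 and Tbc1d4, the glucose transporter gene Slc2a4 and the glycogen synthase gene Gys2. Their probes were found by the gene name printed on the array, with control spots left out. The 9 genes were carried by 18 probes, among 34797 gene names and 55681 probes on the array. Insr had 3 probes, Akt2 had 4, and Irs1, Foxo1, Tbc1d4 and Gys2 had 2 each, while Irs2, Pik3r1 and Slc2a4 had 1 probe each. The Slc2a4 probe was printed as 10 spots on each array and the other member probes as 1 spot.

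RNA came from epididymal white adipose tissue (eWAT), the visceral fat depot beside the epididymis of male mice, and every sample belonged to 1 group, "HFD, DFO injected", of 10 mice. The labels give the strain as C57BL/6JOlaHsd in 1 field and as C57BL/6J in another. The wildtype male mice were 9 weeks old at the start, ate a low fat diet for 3 weeks and a high fat diet (HFD) for 12 weeks at 29°C, and were then injected on each of 5 days with the iron chelator desferrioxamine (DFO) at 100 mg/kg, with food removed for 2 hours before they were killed. A two-colour array was used for each mouse, with its own RNA in Cy5 and a reference pool in Cy3. The pool was mixed from all mice of the wider study, both controls and these 10 mice, and so it stands for no control group. Control mice were not analysed here, and no effect of DFO or of the diet can be read from these arrays. Bulk tissue was used, so that adipocytes, macrophages, endothelium and other cells all contributed RNA. The mice are named 1 to 10 by their replicate number, and the arrays lay on 5 slides that held mice 1 and 2, 3 and 4, 5 and 6, 7 and 8, and 9 and 10.

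Insulin binds its receptor, a tyrosine kinase, which phosphorylates the adaptor proteins Irs1 and Irs2. These recruit PI3-kinase, and the lipid it makes brings Akt2 to the membrane, where Akt2 is activated. In adipocytes Akt2 phosphorylates Tbc1d4, which releases vesicles that carry the glucose transporter Glut4, the product of Slc2a4, to the cell surface. It also phosphorylates Foxo1, a transcription factor that then leaves the nucleus, and it relieves the inhibition of glycogen synthase. Fat cells are a main site of Slc2a4 expression, together with skeletal and heart muscle. Most of these steps are changes of phosphorylation or of place in the cell, which an array of RNA does not measure.

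The probes are DNA strands of 60 bases, each lying in 1 stretch of the transcript, and the place of the stretch differed between probes of the same gene. Probes of the same gene also differed in brightness, and the parts of place and brightness in their spread were not tested. For some probes, the bases are shown 5′ to 3′ as the scanner files give them, in lower case. The probes of Irs2, Akt2, Foxo1 and Tbc1d4 shown whole hold at least 1 reading frame without a stop codon. So do the probes shown in part, and this does not set the 2 kinds apart. For the Irs1, Akt2, Tbc1d4 and Slc2a4 probes that hold AATAAA or ATTAAA, the hexamers that mark the 3′ end of most messages, 30 bases are shown with the hexamer in capitals.
Slc2a4 A_51_P217498, bases 31 to 60: caagggctgctgtATTAAAtgtgtatatag
Akt2 A_55_P2025228, bases 24 to 53: tacggtacaagcAATAAAgacactcatttc
Akt2 A_55_P2066523, whole: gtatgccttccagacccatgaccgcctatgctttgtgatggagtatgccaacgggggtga
Irs1 A_52_P175242, bases 31 to 60: gtagtgtcttcatcgttaATTAAAgaaaac
Irs2 A_66_P102260, whole: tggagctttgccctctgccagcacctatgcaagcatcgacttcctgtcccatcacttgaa
Foxo1 A_51_P138044, whole: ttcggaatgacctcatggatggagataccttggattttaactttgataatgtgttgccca
Tbc1d4 A_52_P381430, whole: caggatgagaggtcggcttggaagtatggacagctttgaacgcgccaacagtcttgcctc
Tbc1d4 A_55_P2024953, bases 23 to 52: agaattatttccAATAAAtatgttgctgcc

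On the probe strand, AATAAA or ATTAAA was found in 5 of the 18 member probes and in 13.69% of the 55681 probes on the array. The reverse complements TTTATT and TTTAAT were in no member probe, and in 3.74% and 2.53% of all probes. The fifth member probe with a hexamer was Akt2 A_55_P2066518, which shares 53 of its 60 bases with A_55_P2025228 and starts 7 bases before it. These 2 probes are therefore nearly the same measurement. The 30 bases shown for A_55_P2025228 are also bases 31 to 60 of A_55_P2066518.

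The median Cy5 brightness of an array was 53.0 to 79.0, its median local background was 32.0 to 37.0, and no spot was saturated. A probe was called expressed when the software marked its Cy5 signal as well above background on at least 5 arrays, which 27811 probes met. All 18 member probes were expressed, and 17 of them were above background in Cy5 on all 10 arrays. The other, Irs1 A_52_P171212, was above background on 6 and its values are less precise. The tissue was checked against fixed markers. Adipoq and the other 11 markers of adipocytes were all expressed, while of 8 markers of skeletal muscle, another source of Slc2a4, Acta1 and Tnni2 were expressed and Ckm, Myh4 and the other 4 were not above background. Of 8 hepatocyte markers, Serpina1a and 3 others were expressed, and Alb, Apoa1, Ttr and Cps1 were not.

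All values below are log2 ratios of a mouse over the pool unless another quantity is named. Dyes were not swapped and a probe's dye bias is part of its ratio, so that no ratio was tested against 0 and levels of different probes were not compared. The zero of this scale also depends on the normalization, as centring each array on its median moved the median expressed probe by 0.37. Differences between mice on 1 probe share the same pool and the same dyes. The question that the arrays do answer is whether a gene differed between the samples of the 10 mice by more than 1 pool of RNA measured repeatedly. To this end, the spread of log2 Cy5, a different mouse on each array, was compared with that of log2 Cy3, the same pool on each array, with the Pitman-Morgan test, which compares the variances of paired values. Each Cy5 sample also carries its own dissection and RNA isolation, which repeated use of 1 pool does not measure. A larger spread in Cy5 can therefore hold these steps as well as differences between the mice. P-values were adjusted after Benjamini and Hochberg over all 25049 probes above background in both channels.

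The 9 genes differed between mice by more than the pool differed between arrays, each through at least 1 probe. Cy5 varied more in 16 of the 18 member probes at an adjusted p under 0.05, and Cy3 varied more in none. Over all tested probes, Cy5 varied more in 59.8% and Cy3 in 0.164%, a share that lay between 26.1% and 64.0% with the other filters, median centring or the slide as a block. The member probes had a median SD of the log2 ratio of 0.44, against 0.18 over the expressed probes. In Cy3 alone, the median SD of the log2 signal was 0.07 over the member probes and 0.08 over all tested probes. The probes that did not pass were Insr A_55_P2172566 (SD 0.22 in Cy5 and 0.12 in Cy3, adjusted p = 0.125, Pitman-Morgan) and Akt2 A_66_P135179 (SD 0.10 and 0.09, adjusted p = 0.835). Without normalization between arrays, 6 member probes passed, beside 4675 of all tested probes (18.7%), and Irs1, Pik3r1 and Gys2 then had no probe that passed. No member probe and no other probe passed the test for a difference between slides (0.0% of 27718 probes, limma moderated F test), and 1137 had an unadjusted p under 0.05, among them 1 member probe, Irs1 A_52_P171212.

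**Figure D1:**
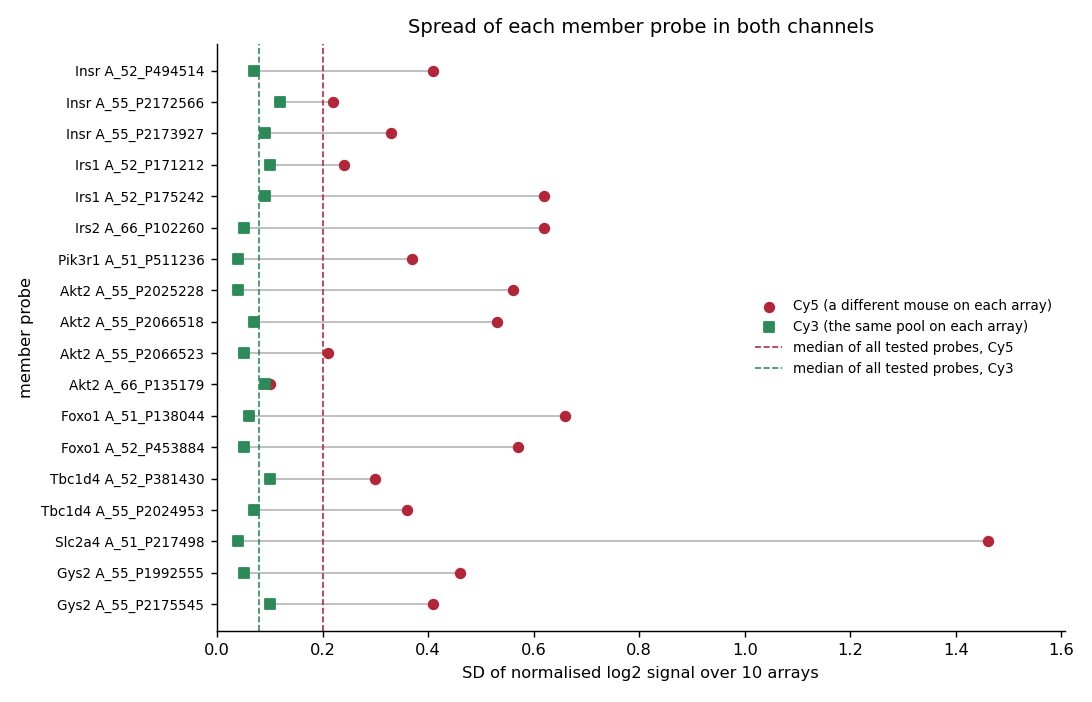
SD of the normalised log2 signal over 10 arrays for each of the 18 member probes, in Cy5 (red circles, a different mouse on each array) and Cy3 (green squares, the same pool on each array), with dashed lines at the medians of all tested probes, 0.20 in Cy5 and 0.08 in Cy3. Slc2a4 lies farthest right at 1.46 in Cy5, while Cy3 stays between 0.04 and 0.12 in all member probes.

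All 10 mice carry the same labels, but the members split them. Mice 4, 5, 6 and 7 had the 4 lowest values in 12 of the 18 member probes. Over the expressed probes, these mice had the 4 lowest values in 21.3% and the 4 highest in 17.9%. No label separates mice 4 to 7 from the others, and they were singled out after the values were seen, so no test was made between them and the other 6. They lay on 3 slides, and 2 of those slides also held a mouse of the other 6 (mouse 3 beside mouse 4, and mouse 8 beside mouse 7). The same split was seen in adipocyte markers. Mice 4 to 7 had the 4 lowest values in 12 of 12 adipocyte markers, among them Adipoq, the gene of the fat cell hormone adiponectin, which lay between -2.78 and -1.63 in them and between -0.08 and 0.81 in the other mice. Plin1, which encodes a coat protein of the lipid droplet, lay between -2.31 and -1.13 in mice 4 to 7 and between -0.34 and 0.54 in the others. They had the 4 highest values in 11 of 12 macrophage markers, among them Cd68, between 0.65 and 0.99 against -1.39 to -0.10, and Adgre1, between 1.23 and 1.56 against -1.52 to 0.05. In 7 of 8 endothelial markers they were lowest, with Pecam1 between -0.64 and -0.42 against -0.12 to 0.22. They were also lowest in 5 of 8 mesothelial markers and in 3 of 4 expressed blood markers, such as the haemoglobin gene Hba-a1, between -2.42 and -1.55 against -0.89 to 0.71. Of 10 markers of fibroblasts and preadipocytes, they were lowest in 4 and highest in 3. Mouse 2 stood apart in another way. Of the 3 expressed sperm markers, Prm1 was -1.37 in mouse 2 and between -4.11 and -2.93 in the others, and Prm2 was -0.79 and between -2.26 and -1.93. The keratin gene Krt8 was 1.91 in mouse 2 and between -2.25 and -0.23 in the others. Fewer adipocytes and less RNA of a gene per adipocyte cannot be told apart in such bulk samples, and the part of cell composition in the values of the members was not tested.

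Without mice 4 to 7, an alternative chosen after seeing the data, Cy5 varied more than Cy3 in 9 of the 18 member probes, beside 3558 of 25068 probes (14.2%), with 6 arrays in each channel. The median SD of the log2 ratio over the member probes was then 0.22, against 0.14 over the expressed probes. The probes that passed were 1 of each of the 9 genes. Mice 4 to 7 were singled out by low values in these same genes. A smaller spread without them therefore follows in part from that choice.

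**Figure D2:**
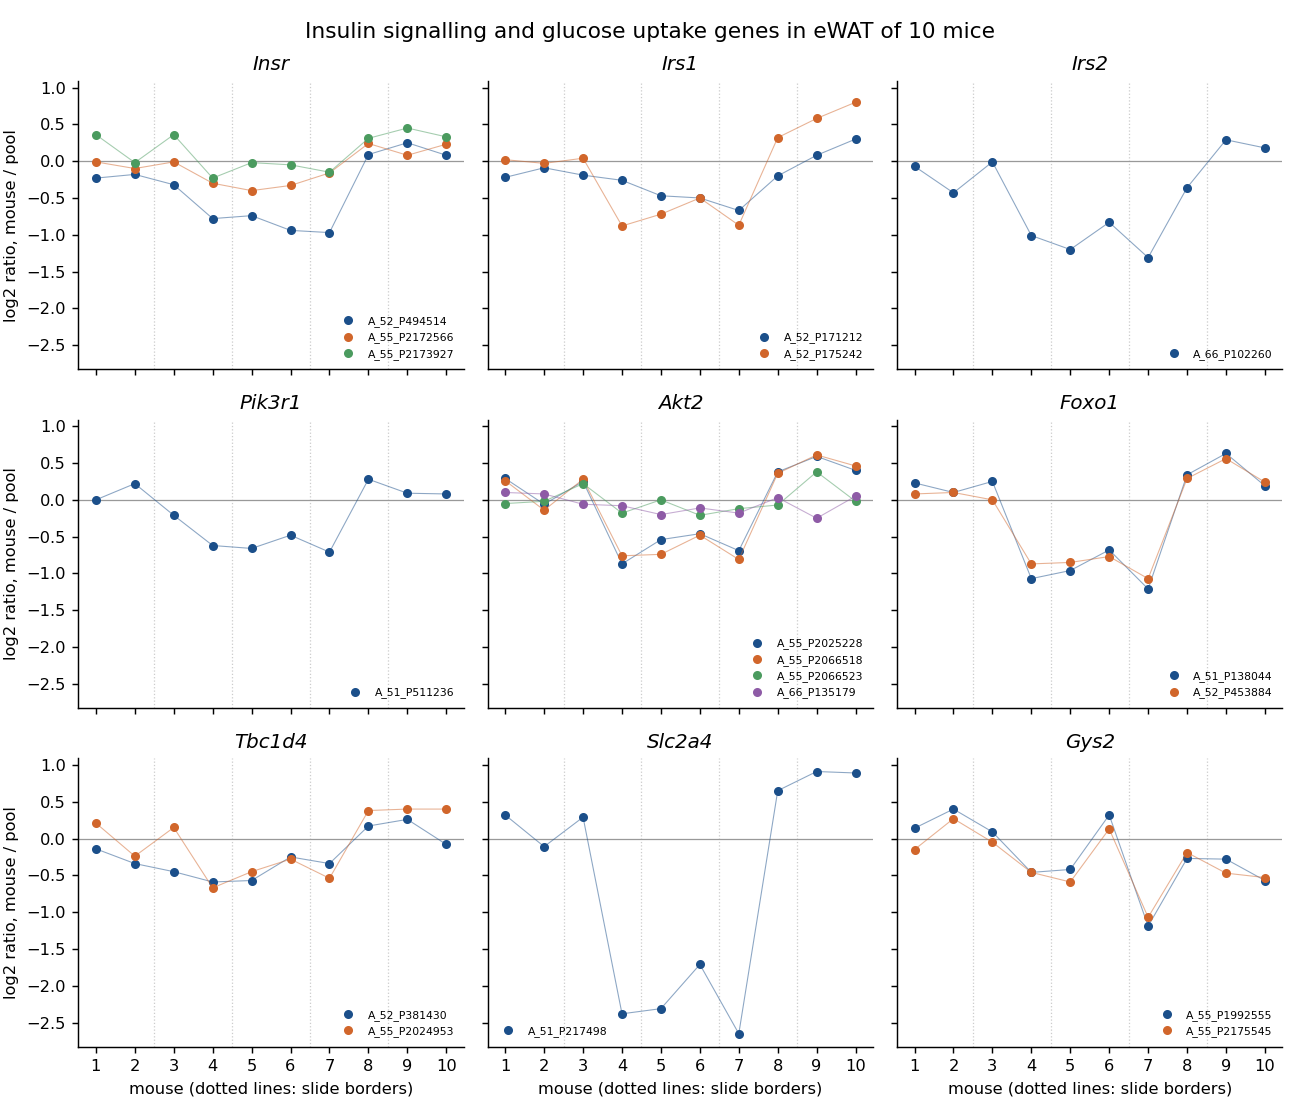
Log2 ratio of each mouse over the reference pool for the 9 genes, 1 colour for each probe and 1 point for each mouse; thin lines only join the points of a probe, dotted lines mark the borders between slides, and all panels share their axes. Mice 4 to 7 lie lowest in Slc2a4, Foxo1, Irs2 and Pik3r1, and in Gys2 mouse 6 lies above 0. The Akt2 probes A_55_P2066523 and A_66_P135179 spread less (SD 0.18 and 0.12) than the overlapping Akt2 pair.

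At the receptor, the spread between mice depended on the probe. Insr A_52_P494514, at chr8:3151667-3151726 (mm9, minus strand), had its lowest ratio of -0.97 in mouse 7, a median of -0.27 and its highest of 0.25 in mouse 9. Mice 4 to 7 lay between -0.97 and -0.74 and the other mice between -0.32 and 0.25, so that the ranges did not overlap. The SD of the log2 ratio was 0.45 (n = 10 mice), and Cy5 varied 5.52 times as much as Cy3 by SD (adjusted p = 9.43e-05, Pitman-Morgan). This call was lost without normalization between arrays. The other Insr probes lie nearer the 5′ end of the transcript. A_55_P2172566 ranged from -0.40 to 0.24 with an SD of 0.22, and A_55_P2173927 from -0.23 to 0.45 with an SD of 0.25 (adjusted p = 3.95e-06 for the latter). Insr thus differed 2.32-fold between the lowest and the highest mouse by the probe nearest the 3′ end, and 1.56-fold and 1.61-fold by the others. That probe was also the brightest, with a mean log2 Cy5 of 8.467 against 6.965 and 7.438.

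Both adaptor genes were lowest in mice 4 to 7. Irs1 A_52_P175242 ranged from -0.88 in mouse 4 over a median of -0.01 to 0.80 in mouse 10, a 3.21-fold span, with mice 4 to 7 between -0.88 and -0.50 and the others between -0.03 and 0.80. Its SD was 0.60 (n = 10 mice, adjusted p = 7.08e-05, Pitman-Morgan, a call lost without normalization between arrays). The second Irs1 probe, A_52_P171212, nearer the 5′ end and above background on 6 arrays, had an SD of 0.28 and ranged from -0.67 in mouse 7 to 0.30 in mouse 10 (adjusted p = 0.0428). It lost this call when mouse 1, 4, 5, 6, 7 or 10 was left out, and without normalization between arrays, without a filter or with the slide as a block. Irs2 ranged from -1.31 in mouse 7 over a median of -0.39 to 0.29 in mouse 9, a 3.03-fold span, and mice 4 to 7 lay between -1.31 and -0.83 against -0.43 to 0.29 in the others. Its SD was 0.58 (n = 10 mice, adjusted p = 3.46e-07). In the other 6 mice the order differed between the adaptors, as mouse 8, with -0.36 for Irs2, lay below mice 1 and 3 at -0.07 and -0.01, and with 0.32 for Irs1 lay above them at 0.02 and 0.04.

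The promoters of both adaptor genes are shown 5′ to 3′ on the strand of the gene. They are the 250 bases before the start of each gene in the RefSeq table (GRCm38.p6, another build than the mm9 of the array). The capitals mark CACGTG, the E-box, which is bound by several basic helix-loop-helix factors.
Irs1, chr1:82291440-82291689, minus strand: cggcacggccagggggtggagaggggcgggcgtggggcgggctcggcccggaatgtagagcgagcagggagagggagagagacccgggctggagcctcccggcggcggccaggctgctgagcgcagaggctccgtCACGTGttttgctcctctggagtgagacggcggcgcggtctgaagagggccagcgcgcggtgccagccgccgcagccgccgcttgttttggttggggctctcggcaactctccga
Irs2, chr8:11008930-11009179, minus strand: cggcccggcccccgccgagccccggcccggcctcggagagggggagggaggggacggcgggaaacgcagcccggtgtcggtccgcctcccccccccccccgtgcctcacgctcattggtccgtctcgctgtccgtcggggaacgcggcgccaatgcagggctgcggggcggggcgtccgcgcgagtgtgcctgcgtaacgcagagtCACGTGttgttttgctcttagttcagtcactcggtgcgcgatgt

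CACGTG, which reads the same on both strands, occurred once in each, starting 115 bases before the start of Irs1 and 44 bases before that of Irs2. It was found in the same window of 6.02% of the 32851 promoters in the table. Of the members with an entry, Pik3r1, Akt2, Foxo1 and Tbc1d4 lacked it. Mice 4 to 7 were also the 4 lowest in at least 1 probe of each of these genes, so this order of mice did not go with CACGTG alone. The identical stretch around it in the Irs1 and Irs2 promoters was 10 bases long, GTCACGTGTT, and 23 promoters (0.070%) held that stretch on either strand. The stretch was taken from the match of these 2 promoters, so both hold it by construction and its rarity is no test. The shorter ACGTG, searched on both strands and contained in every CACGTG, was in 16.57% of the promoters and in those of Akt2, Irs1 and Irs2. GTAAACA, a core that forkhead factors such as Foxo1 bind, was in 3.17% of the promoters and in none of the members found, on either strand. Pik3r1 has 2 entries in the table, Akt2 has 4, and Foxo1 and Tbc1d4 have 1 each. Insr, Slc2a4 and Gys2 have none. These matches describe the letters only.

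Pik3r1, whose product p85 is the regulatory subunit of PI3-kinase, had a smaller SD than Irs2 and Irs1 A_52_P175242, and a larger one than Irs1 A_52_P171212. It ranged from -0.71 in mouse 7 over a median of -0.10 to 0.28 in mouse 8, a 1.98-fold span, with an SD of 0.39 (n = 10 mice, adjusted p = 1.11e-05, Pitman-Morgan, a call lost without normalization between arrays). Mice 4 to 7 lay between -0.71 and -0.48 and the other mice between -0.21 and 0.28. Within slides, mouse 4 was 0.41 below mouse 3 and mouse 8 was 0.99 above mouse 7, whereas mice 9 and 10 had 0.09 and 0.08.

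For Akt2, the main Akt isoform of insulin action in fat, the 4 probes gave different pictures. The overlapping probes A_55_P2025228 and A_55_P2066518, at chr7:28424412-28424471 and chr7:28424405-28424464 (mm9, plus strand), had SDs of 0.53 and 0.56, and their difference within a mouse had an SD of 0.09. A_55_P2025228 ranged from -0.87 in mouse 4 over a median of 0.10 to 0.59 in mouse 9, a 2.76-fold span (adjusted p = 5.24e-08, Pitman-Morgan), with mice 4 to 7 between -0.87 and -0.46 and the others between -0.06 and 0.59. The probe A_55_P2066523 lies nearer the 5′ end, at chr7:28418226-28418285. It ranged only from -0.21 in mouse 6 to 0.38 in mouse 9, with an SD of 0.18 (adjusted p = 2.98e-04), and mice 4 to 7, between -0.21 and 0.00, overlapped with the others. It lost its call without normalization between arrays and with median centring, and A_55_P2066518 lost its call without normalization between arrays. A_66_P135179, at chr7:28425375-28425434 and assigned to another transcript model, ranged from -0.25 in mouse 9 to 0.10 in mouse 1, with an SD of 0.12. The 4 lowest values were thus those of mice 4 to 7 at the pair of overlapping probes, and not at A_55_P2066523 on its 5′ side or at A_66_P135179 on its 3′ side. The SD of the difference between A_55_P2025228 and A_55_P2066523 was 0.43. Mean log2 Cy5 was 12.65 and 12.6 at the overlapping probes, 8.979 at A_55_P2066523 and 7.071 at A_66_P135179. The cause of the difference between probes was not tested.

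Foxo1, a transcription factor that Akt2 keeps out of the nucleus, had the largest spread after Slc2a4. A_51_P138044 ranged from -1.21 in mouse 7 over a median of 0.15 to 0.63 in mouse 9, a 3.59-fold span with an SD of 0.68 (n = 10 mice, adjusted p = 4.25e-06, Pitman-Morgan). Mice 4 to 7 lay between -1.21 and -0.68 and the other mice between 0.10 and 0.63. The second probe, A_52_P453884, which lies nearer the 3′ end, had an SD of 0.59 and left a similar gap, with -1.07 to -0.77 against 0.00 to 0.56. The difference between the 2 probes within a mouse had an SD of 0.14, so that Foxo1 was read alike at both places. Without mice 4 to 7 the SDs of the 2 probes were 0.18 and 0.20. A_51_P138044 then no longer passed the variance test (adjusted p = 0.136, Pitman-Morgan), while A_52_P453884 still did (adjusted p = 0.00408). Over all 10 mice, A_52_P453884 lost its call without normalization between arrays.

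Tbc1d4, the Rab GTPase-activating protein that holds Glut4 vesicles back until Akt2 phosphorylates it, spread less. A_55_P2024953 ranged from -0.67 in mouse 4 to 0.40 in mouse 9, with an SD of 0.42 (n = 10 mice, adjusted p = 3.25e-05, Pitman-Morgan). Its call was lost without normalization between arrays. Mice 4 to 7, between -0.67 and -0.28, lay just below mouse 2 at -0.24. A_52_P381430, the probe shown whole above, ranged from -0.59 in mouse 4 to 0.26 in mouse 9, with an SD of 0.29 (adjusted p = 0.0117), and there mice 2, 3, 4 and 5 were the lowest. The 2 probes differed within a mouse by an SD of 0.25, and A_55_P2024953 was the brighter (mean log2 Cy5 9.493 against 7.699). Without mouse 9, A_52_P381430 no longer passed.

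Slc2a4, the gene of the insulin-responsive glucose transporter Glut4, differed most between mice. The log2 ratio was 0.32, -0.11 and 0.29 in mice 1 to 3, -2.38, -2.31, -1.71 and -2.65 in mice 4 to 7, and 0.65, 0.91 and 0.89 in mice 8 to 10. Mouse 9 thus had 11.8 times the ratio of mouse 7, and a gap of 1.60 separated mice 4 to 7 from the other mice. The SD was 1.47 (n = 10 mice), which was larger than that of 99.9% of the expressed probes. Cy5 had an SD of 1.46 and Cy3 of 0.04, a ratio of 35.0 (adjusted p = 1.35e-08, Pitman-Morgan). The 10 spots of this probe on an array had a median SD of 0.049, between 0.025 and 0.159 over the arrays. Mice 9 and 10 differed by 0.01, less than this, while mouse 6 was 0.59 above mouse 5 on the same slide. The split lay within slides, as mouse 4 was 2.67 below mouse 3 and mouse 8 was 3.30 above mouse 7. Without mice 4 to 7 the SD was 0.40, and Cy5 still varied more than Cy3 (adjusted p = 0.0118, Pitman-Morgan).

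Gys2 was the only member in which no probe had mice 4 to 7 as the 4 lowest. Some probes of Insr, Akt2 and Tbc1d4 also lacked that order. A_55_P1992555 was 0.14, 0.40 and 0.09 in mice 1 to 3, -0.46, -0.42, 0.32 and -1.19 in mice 4 to 7, and -0.27, -0.28 and -0.57 in mice 8 to 10. Mice 6 and 2 were highest, and mice 8 to 10, which were highest in Slc2a4, lay below mice 1 to 3. The SD was 0.48 (n = 10 mice, adjusted p = 1.63e-05, Pitman-Morgan), and both Gys2 probes lost their call without normalization between arrays. Mouse 2, the highest here, was also the mouse with the highest sperm markers and Krt8, and their part in its Gys2 value was not tested. The SD was 0.45 without mouse 2 and 0.36 without mouse 7, the lowest mouse. The second probe, A_55_P2175545, gave the same lowest and highest mice, -1.07 in mouse 7 and 0.27 in mouse 2, with an SD of 0.39 (adjusted p = 0.00128), and the difference between both probes within a mouse had an SD of 0.14. Gys2 encodes the liver form of glycogen synthase. Its relative Gys1, which encodes the form of muscle and other tissues, had mice 4 to 7 lowest, between -1.14 and -0.67 against -0.01 to 0.39 in the others.

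The members were also set beside the adipocyte markers in each mouse. The mean of the 12 adipocyte markers (11 in mouse 9, where the Retn spot was left out as an outlier) ranged from -2.24 in mouse 7 to 0.60 in mouse 9 with an SD of 1.16, and that of the 12 macrophage markers from -1.45 in mouse 9 to 1.05 in mouse 7 with an SD of 0.96. After subtraction of the adipocyte mean from each mouse, chosen after seeing the data, the SD of Slc2a4 was 0.33, with values between -0.51 in mouse 5 and 0.36 in mouse 10. For Foxo1 A_51_P138044 it was 0.49 in place of 0.68, with values between -0.35 and 1.03. For the other probes of the members it was 0.59 or more, and above the SD of the plain ratio in all of them except Foxo1 A_52_P453884, where both were 0.59. Of the expressed probes, 3.28% had a smaller SD after the subtraction than before. Subtracting a mean with an SD of 1.16 must raise the SD of any probe whose own SD is small beside it. For such probes, most members among them, the rise therefore says nothing on their likeness to the adipocyte markers. The subtraction rests on which markers are chosen, since without Cfd and Retn, the markers that were lowest in mice 4 to 7, the SD of Slc2a4 after it was 0.51 and that of Foxo1 A_51_P138044 was 0.31. With these 10 markers the SD also fell below that of the plain ratio for Foxo1 A_52_P453884 (0.42), Irs1 A_52_P175242 (0.45), Irs2 (0.46) and the overlapping Akt2 probes A_55_P2025228 (0.47) and A_55_P2066518 (0.44).

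**Figure D3:**
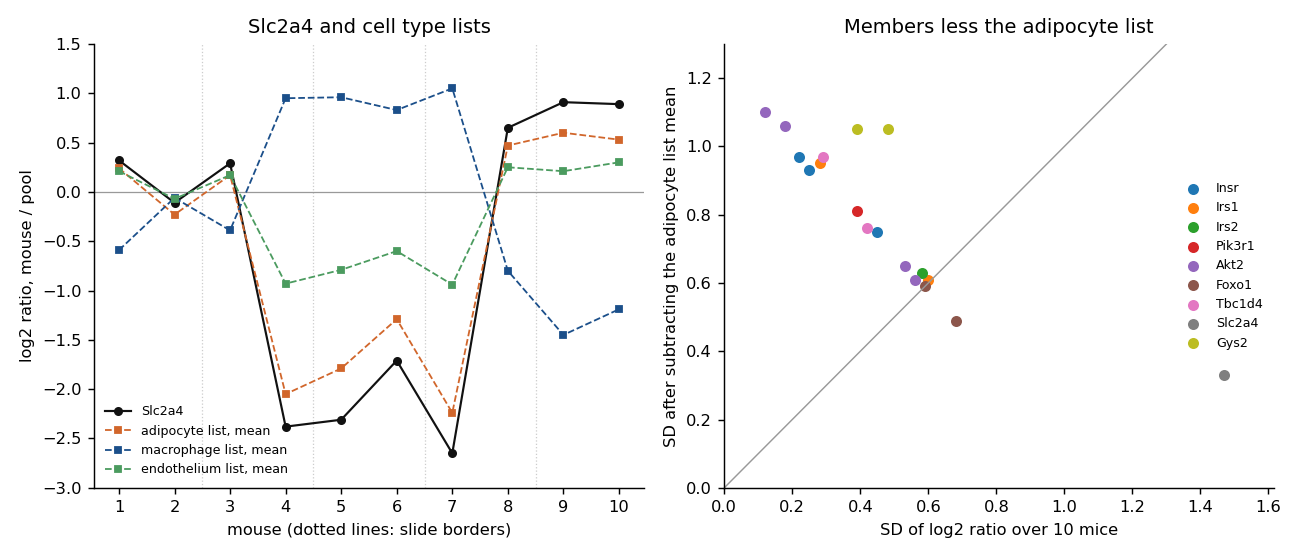
Left, log2 ratio over the pool by mouse for Slc2a4 (black circles) and the means of the adipocyte, macrophage and endothelial marker lists (squares); dotted lines mark the borders between slides. Right, SD over 10 mice of each member probe before (x axis) and after (y axis) the adipocyte mean was subtracted, with a line where both are equal; Slc2a4 moves from 1.47 to 0.33 and most other probes lie above the line, where the subtraction itself places probes of small SD.

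For the members with the largest SD, the genes with the most similar values over the 10 mice were found by the root mean square difference of log2 ratios, each centred on its mean. Closest to Slc2a4 were Nnat (0.09), Chst1 (0.13) and Plin4 (0.14), and Plin4, which encodes a lipid droplet protein, ranged from -2.94 to 0.82. Closest to Foxo1 were Slc25a35 (0.07), Ormdl3 (0.08) and Mpdz (0.08). Closest to Irs1 were Ppm1l (0.12), Etl4 (0.12) and Acss3 (0.13). These are the nearest of all expressed genes over 10 mice and were given no test.

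The rest of the pathway was followed through 75 further genes in 8 lists by role, of which 74 were expressed. Cy5 varied more than Cy3 in 78 of 104 tested probes of these genes (75.0%), beside 59.8% of all tested probes, and Cy3 in none. The counts by list are to be read against the same 59.8%, and their difference from it was not tested. With 1 probe for each gene, mice 4 to 7 had the 4 lowest values in 25 of the 74 genes (33.8%) and the 4 highest in 18 (24.3%), beside 21.3% and 17.9% of the expressed probes.

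Among receptors and adaptors, Irs3, an adaptor gene of mouse fat, had an SD of 0.61 with mice 4 to 7 between -0.98 and -0.51, while Cbl, which encodes a ubiquitin ligase, had an SD of 0.42 with these mice between 0.28 and 0.71. In this list 7 of 10 tested probes passed. In the list of lipid kinases and the Akt arm, where 11 of 15 probes passed, Pik3r3, another regulatory PI3-kinase subunit gene, lay between -0.92 and -0.56 in mice 4 to 7 and between -0.25 and 0.21 in the others.

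Of the negative regulators, 11 of 14 tested probes passed. Ptpn1, which encodes the phosphatase PTP1B that acts on the insulin receptor, was highest in mice 4 to 7, between 0.29 and 0.93 against -0.61 to -0.14 in the others (SD 0.59, adjusted p = 3.22e-07, Pitman-Morgan). Grb14, whose product binds the receptor and inhibits it, ranged from -1.23 in mouse 7 to 0.57 in mouse 2, the mouse with the highest sperm markers, with an SD of 0.49, and these are also the lowest and the highest mouse of Gys2. Of the Akt targets, 6 of 13 probes passed, a share below that of all tested probes. Pde3b, the phosphodiesterase gene through which insulin restrains lipolysis, lay between -1.50 and -0.87 in mice 4 to 7 and between -0.16 and 0.63 in the others. The second gene by SD in that list was Foxo3, with an SD of 0.21, and it did not pass (adjusted p = 0.963).

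In the list of Glut4 vesicle traffic, 19 of 25 probes passed, and mice 4 to 7 were lowest in 5 of 15 genes and highest in 5. Rhoq, the gene of the GTPase TC10, lay between -1.07 and -0.64 in mice 4 to 7 against -0.29 to 0.29 in the others. Among the other glucose transporters and hexokinases, 6 of 7 probes passed. Slc2a1, the gene of the insulin-independent transporter Glut1, lay between 0.91 and 1.44 in mice 4 to 7 and between -0.47 and 0.48 in the others, so that it was highest in the mice in which Slc2a4 was lowest (SD 0.75, adjusted p = 1.33e-05, Pitman-Morgan). Hk2, the gene of a hexokinase of insulin-sensitive tissues, lay on the side of Slc2a4, between -1.13 and -0.36 against -0.04 to 0.93.

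Among the glycogen enzymes, 14 of 16 probes passed and mice 4 to 7 were lowest in 6 of 12 genes. Ppp1r3c, which encodes a protein that targets a phosphatase to glycogen, lay between -0.88 and -0.57 in mice 4 to 7 and between 0.28 and 0.88 in the others. Epm2a was not above background. All 4 probes of the 3 genes of insulin-responsive transcription passed. Pck1, the gene of the enzyme that makes glycerol phosphate for re-esterification in fat, had the largest SD of the pathway at 1.89, from -3.56 in mouse 5 to 1.22 in mouse 9, and Mlxipl, which encodes the carbohydrate-responsive factor ChREBP, lay between -1.61 and -0.89 in mice 4 to 7 and between 0.17 and 0.61 in the others.

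**Figure D4:**
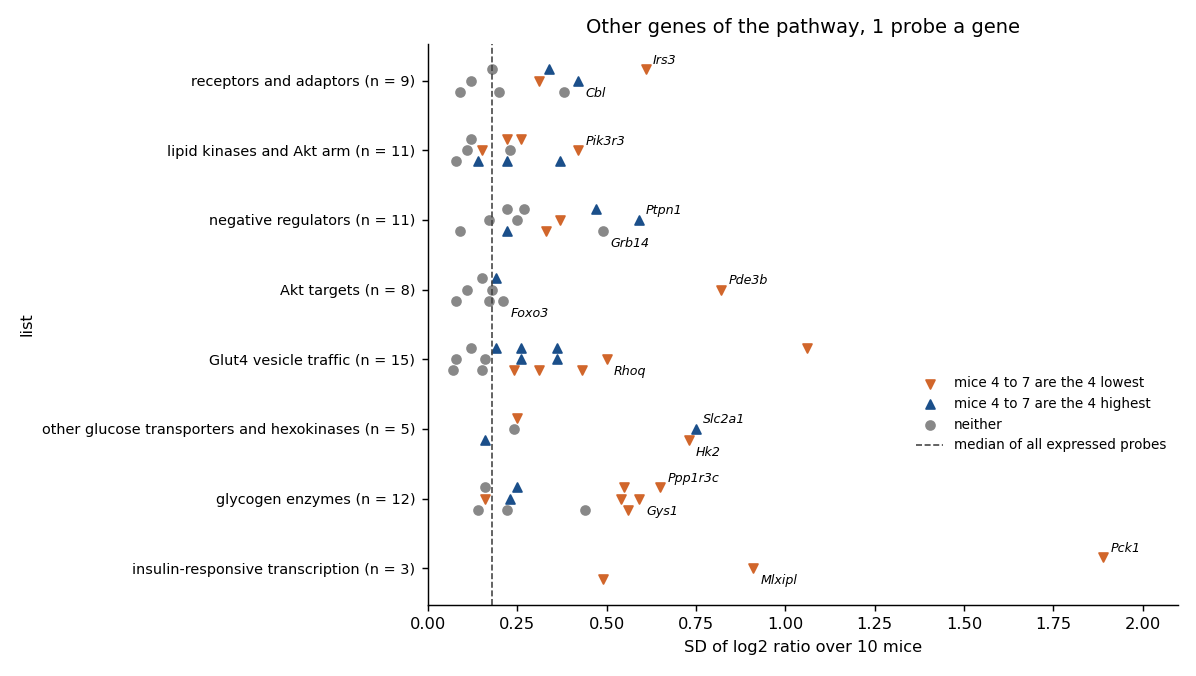
SD of the log2 ratio over 10 mice for the 74 expressed genes of the wider pathway, 1 point for each gene, in rows by list; orange triangles pointing down mark genes in which mice 4 to 7 had the 4 lowest values, blue triangles pointing up the 4 highest, grey circles neither, and the dashed line is the median of all expressed probes (0.18). The genes named in the text are labelled, and Pck1 lies farthest right at 1.89.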

How the data were processed

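Per the labels, RNA of each mouse was labelled with Cy5 and hybridized against a Cy3 pool on Agilent arrays. The authors deposited 1 scanner file per array, whose intensity values are mean spot and median background brightness in each dye, written without normalization by Agilent Feature Extraction 10.7.3.1. The deposited log10 ratio of Cy5 over Cy3 comes from the same software, which had subtracted the background and balanced the dyes. A second deposited table holds normalized values of 30733 spots, which by their range are log2. Each column followed its array's log2 Cy5 signal (r between 0.994 and 0.999) and had a median of 8.52, and how it was centred stays unknown. Probe positions are those of the array annotation (mm9).

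Here, intensities were corrected by normexp (offset 50), loess within arrays and Aquantile between arrays in limma 3.58.1 (R 4.3.3). Control spots had weight 0 in loess, spots marked as outliers were left out, and spots of a probe were averaged. For genes with several probes, the list results used the probe of highest mean Cy5 signal. The variance test ran in Python 3.11.15 with scipy 1.17.1 and was tested on simulated data. There was 1 group, so conditions were not compared. The number of arrays limits the precision, and p-values set the spread between the samples of these mice against that of the pool.

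All members are named. Of each pathway list the 2 expressed genes of largest SD are named, of the adipocyte, macrophage, endothelial, muscle and hepatocyte lists the first expressed markers, and for the 3 members of largest SD the 3 most similar genes. Some genes that this rule picks are not reported here. Members, lists and rules were chosen with earlier results of these data known. Alternatives were no background subtraction, no normalization between arrays, median centring, the log10 ratio of the software, the deposited table, other filters, the slide as a block, the mean over probes, and leaving out each mouse. The sequence of the members is from the deposited files, and that of promoters from RefSeq.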

Additional observations from a re-analysis of the deposited data

Results flagged for a closer look

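In each member probe and in 1 probe of each of the 74 expressed pathway genes, the gap between the highest or the lowest mouse and its neighbour was divided by the range over the 10 mice, and a share above Dixon's critical value for 10 samples set the mouse apart. No member probe passed this limit, and the largest share was 0.388, for mouse 7 in Gys2 A_55_P1992555. Of the 74 pathway genes 5 passed. Chance alone sets about 5% of groups apart, so this count is near that of chance and the genes below are only listed. Mouse 2 stood above the others in Igf1r, the gene of the IGF-1 receptor, at a log2 ratio of 0.57 with the next mouse at -0.20 (share 0.515). It also did so in Exoc7, at 0.30 with the next at 0.01 (share 0.467). Mouse 2 was also the mouse with the highest Prm1, a sperm gene, at -1.37 against -4.11 to -2.93, and the highest Krt8, at 1.91 against -2.25 to -0.23, and their part in these values was not tested. Mouse 1 was highest in Socs3, the gene of a cytokine-induced inhibitor of insulin signalling, at 0.52 with the next at 0.00 (share 0.548). Mouse 3 was lowest in Rheb, the gene of a GTPase that activates mTOR, at -0.32 with the next at 0.06 (share 0.604). Mouse 6 was lowest in Rab10, the gene of a GTPase of Glut4 vesicles, at -0.26 with the next at -0.13 (share 0.524).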

How the results depend on the processing

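No paired analysis was possible because all samples belong to 1 group. Without normalization between arrays, Cy5 varied more than Cy3 in 6 member probes in place of 16, in 26 pathway probes in place of 78, and in 4675 of all probes in place of 14973. The median SD of log2 Cy3 was then 0.20 in place of 0.08. Without mice 4 to 7, chosen after seeing the data, the counts were 9, 23 and 3558, with fewer arrays in the test. As these mice were picked for low values in the members, lower counts and SDs without them follow in part from that choice. When mice were left out 1 at a time, 15 to 16 member probes, 69 to 76 pathway probes and 13516 to 14415 of all probes passed. With the other settings 15 or 16 member probes passed, while the share of all probes was 61.2% without background subtraction, 64.0% with the filter on all 10 arrays, 40.4% with median centring, 41.2% with the slide as a block and 26.1% with no filter. No probe passed the slide test in any of its settings. An unadjusted p under 0.05 (limma moderated F test) was found for 1137 of 27718 probes in the main setting. The count was 2713 of 27718 with median centring and 2440 of 55537 with no filter. Such counts include the share that this threshold passes by chance alone. With 1 mouse left out or another processing, SDs of single members stayed within 1.5 times, except that the mean over all probes gave 0.29 for Insr and 0.31 for Akt2. Without mice 4 to 7 the SD was 0.40 for Slc2a4, 0.18 for Foxo1 A_51_P138044, 0.22 for Insr A_52_P494514, 0.34 for Irs1 A_52_P175242, 0.29 for Irs2, 0.17 for Pik3r1, 0.22 for Akt2 A_55_P2025228 and 0.25 for Tbc1d4 A_55_P2024953, all moved by over 1.5 times, and 0.36 for Gys2 A_55_P1992555. Median centring raised the mean log2 ratio of Slc2a4 from -0.61 to -0.03 and that of Foxo1 from -0.22 to 0.33, so no side of the pool is given for the members. Cy5 of Irs1 A_52_P171212 was above background on 6 arrays, which limits that probe.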
